A study of Mus musculus with 6 samples.

Results

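The genes described here are 36 genes of DNA replication and cell division, measured by RNA sequencing in mouse liver. They were taken from a list of names, and each matched 1 of the 55471 Ensembl identifiers in the count tables, of which 26801 had a count in at least 1 library. The study compared livers of male wild-type C57BL/6J mice, an inbred laboratory strain, after a 4 h fast (n = 3) and after a 16 h fast (n = 3). No allele was altered and no agent given in either group, and the labels state neither the age of the mice nor their housing. The design text gives the number per group and no more on how samples relate to animals, so p-values measure the spread between these samples. Of the members, 22 serve replication, 13 serve mitosis, and Ccna2 acts in both.

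Before a cell divides it copies its DNA once. A ring of MCM proteins is loaded onto the DNA in G1, cyclin E and its kinase start S phase, and polymerases then copy both strands from nucleotides that the cell makes for the purpose. Cyclin B and its kinase drive the cell into mitosis, where kinases, motor proteins and the anaphase-promoting complex separate the chromosomes. E2F factors act on many replication genes. The DREAM complex and its activating counterparts act on mitosis genes through an element called CHR, often near CCAAT boxes. In adult liver most hepatocytes are quiescent, and transcripts of this kind are scarce.

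Library depth lay between 15173653 and 26572532 counts assigned to genes. All 36 members together took only 1784 to 3862 counts of a library, and the median mean level of the tested members was 2.33 CPM (counts scaled to an equal library size) against 12.9 CPM over all genes tested. The 7 hepatocyte markers were detected in every library, at a summed 80343 to 95224 CPM. Replicate 3 of the 4 h fast stood apart, with 8 lung markers at a summed 187 CPM against 5.54 to 8.80 CPM elsewhere and 10 neutrophil markers at 16.9 CPM against 2.14 to 5.78 CPM. Results are therefore also given without it.

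After the longer fast, 7 of the 28 members that could be tested fell, 6 of 19 replication genes and 1 of 8 mitosis genes. These were the cyclin gene Ccne1, the primase gene Prim1, the nucleotide-supply genes Rrm2 and Tyms, the helicase genes Mcm3 and Mcm6, and Cdc20, which activates the anaphase-promoting complex. No member passed the test as higher (edgeR quasi-likelihood test, adjusted over 13812 genes). Over all genes tested, 9.51% were called lower and 9.18% higher, and over the 8719 genes within the members' range of levels 8.43% and 6.3%. At an unadjusted p under 0.05, 11 members were lower and 1, Birc5, higher, against 17.3% and 16.2% of genes tested. Mean CPM was lower at 16 h for 31 of 36 members, which was the case for 54.4% of all genes with a count. In 13 members all 3 values at 16 h lay below all 3 values at 4 h, and in 1, Birc5, above. Those arrangements were seen in 12.5% and 11.6% of genes with a count, and each in 19.7% of genes tested. DESeq2 called 8 members lower and none higher, against 9.27% and 10.2% of genes. With no low-count filter edgeR called 9 lower and none higher, against 5.8% and 5.81%. In whole liver, fewer cells of a type and less RNA per cell cannot be told apart.

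**Figure D1:**
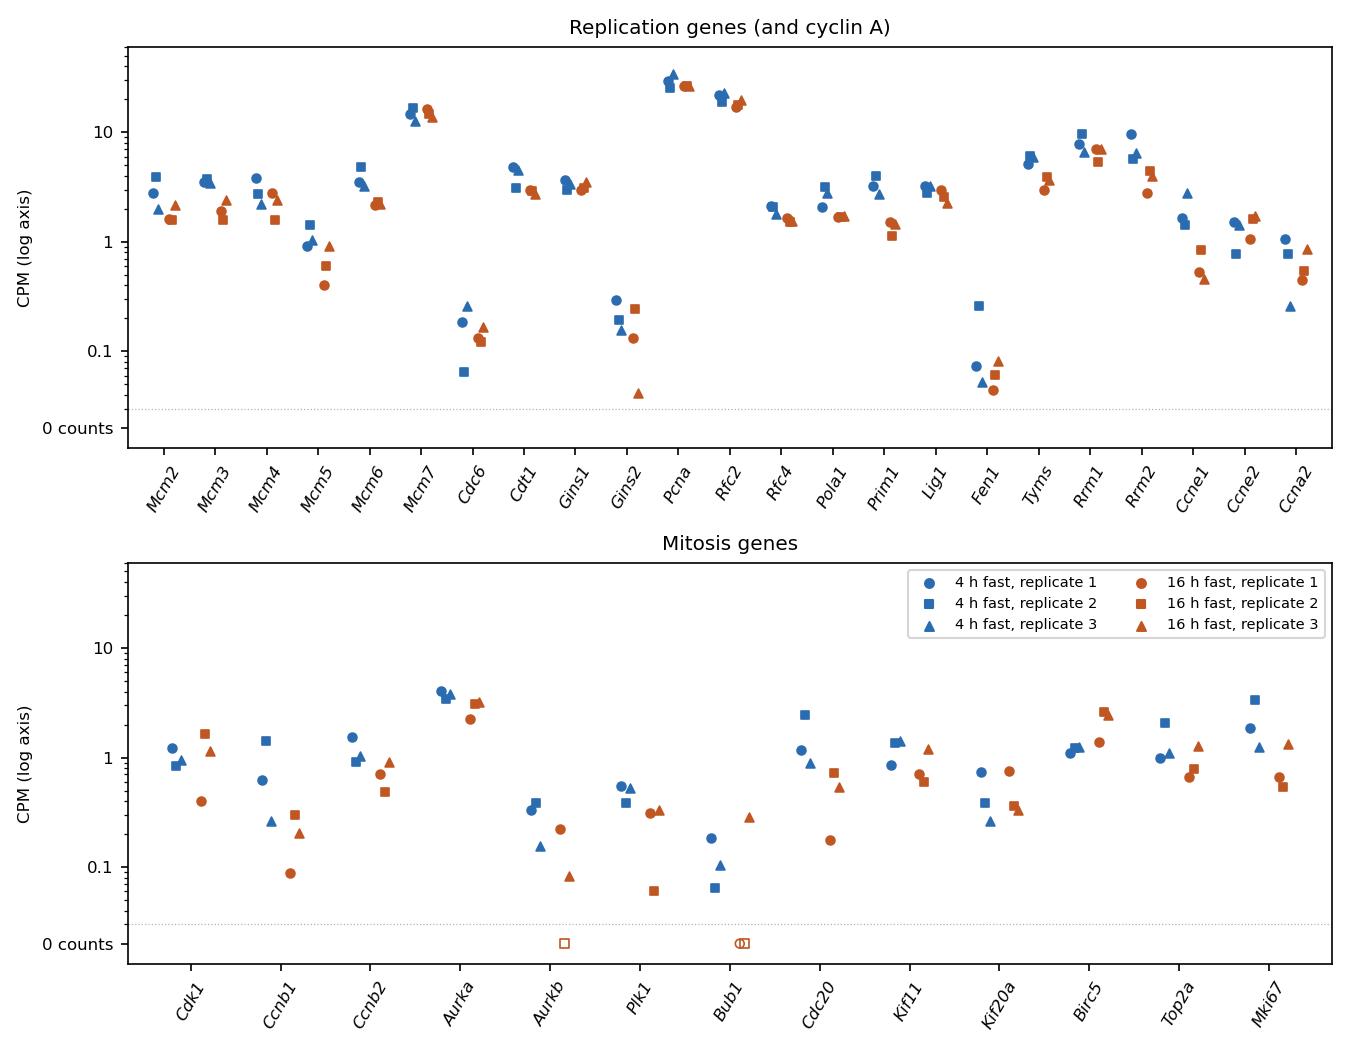
Level of each member in each library as CPM on a log axis, for replication genes with cyclin A (upper panel) and mitosis genes (lower panel). Blue marks the 4 h fast, orange the 16 h fast, marker shapes the replicates, and hollow marks under the dotted line libraries with 0 counts. Pcna, Rfc2 and Mcm7 stand above the rest, and all other members lie below 10 CPM.

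The number of calls rested on single libraries. It was 3, 3 and 10 without replicate 1, 2 or 3 of the 4 h fast, and 2, 4 and 3 without replicate 1, 2 or 3 of the 16 h fast. Without a 4 h library, in that order, 10.7%, 10% and 33.3% of members tested were lower, against 7.42%, 7.81% and 9.73% of genes. Without a 16 h library it was 6.9%, 12.9% and 10% of members, against 5.85%, 4.98% and 4.94% of genes. Prim1 passed without any single library, with a log2 fold change between -1.35 and -1.08. Without the library that carries lung transcripts, the original 7 all fell and Mcm2, Ccnb1 and Mki67 joined them, with 9.73% of genes lower and 11.1% higher. Ccnb1 was below the count filter with all libraries. It entered here only through its 4 h counts of 17 and 22, against 2, 5 and 5 after 16 h. Its call here therefore rests partly on the filter.

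Summed markers of lymphocytes and of erythroid cells were also lower after the longer fast, although not every marker of either list was. The 10 T and B cell markers, all detected, summed to 11.5 to 13.3 CPM after 4 h and to 4.70 to 8.41 CPM after 16 h, although none of the 4 tested passed as lower. Ighm, the highest of them after 4 h, had 6.99, 5.48 and 5.95 CPM and then 5.29, 2.05 and 1.89 CPM. Cd3e had 0.0736, 0.387 and 0.104 CPM and then 0.222, 0.301 and 0.165 CPM, with overlapping groups. The 10 erythroid markers summed to 164 to 193 CPM after 4 h and to 89.0 to 147 CPM after 16 h. Of the 8 tested, Alas2 was called lower (-1.09 ± 0.11) and Tfrc higher (1.62 ± 0.17). Alas2 was a large part of the sum, with 97.1, 104 and 96.6 CPM and then 42.6, 46.4 and 51.1 CPM. No globin gene passed, and Hbb-bs overlapped between groups, with 38.4, 26.3 and 26.3 CPM and then 5.12, 27.1 and 19.9 CPM. Klf1 did not pass either (0.01 ± 0.20). Neutrophil markers, apart from replicate 3 of the 4 h fast, summed to 2.39 and 2.45 CPM and then to 2.14, 5.78 and 2.88 CPM. For 8 Kupffer cell and macrophage markers the sums were 102 to 176 and 97.2 to 117 CPM, and only Timd4 passed, as lower (-0.85 ± 0.25). The 10 endothelial and stellate markers gave 221 to 275 and 204 to 285 CPM. Among them only Col1a1 passed, as lower, from 28.7, 21.4 and 18.1 CPM to 10.7, 5.18 and 8.77 CPM (-1.46 ± 0.25). The part of these cells in the changes of the members was not tested.

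The 7 genes that fell lie on 6 chromosomes. The 200 bases before their RefSeq start sites (GRCm38.p6) are shown because these genes were called lower. Capitals mark the words searched on both strands, namely TTCCCGC or TTGGCGC for E2F, TTTGAA or TTTAAA for CHR, and CCAAT. All are written 5′ to 3′ in the direction of the gene. The intervals are chr7:38107491-38107690 on the minus strand for Ccne1, chr10:128015015-128015214 on the plus strand for Prim1, chr12:24708054-24708253 on the plus strand for Rrm2, and chr5:30073626-30073825 on the minus strand for Tyms. They are chr1:20820313-20820512 for Mcm3, chr1:128359706-128359905 for Mcm6 and chr4:118437344-118437543 for Cdc20, all on the minus strand.
Ccne1: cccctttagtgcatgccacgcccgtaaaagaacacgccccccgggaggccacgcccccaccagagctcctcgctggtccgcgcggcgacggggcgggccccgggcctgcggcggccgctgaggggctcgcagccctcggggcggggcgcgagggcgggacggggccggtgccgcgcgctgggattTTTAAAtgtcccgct
Prim1: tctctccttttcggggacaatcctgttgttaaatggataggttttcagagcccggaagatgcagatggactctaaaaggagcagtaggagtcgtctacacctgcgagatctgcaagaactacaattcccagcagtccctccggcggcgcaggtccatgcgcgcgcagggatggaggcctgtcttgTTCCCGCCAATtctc
Rrm2: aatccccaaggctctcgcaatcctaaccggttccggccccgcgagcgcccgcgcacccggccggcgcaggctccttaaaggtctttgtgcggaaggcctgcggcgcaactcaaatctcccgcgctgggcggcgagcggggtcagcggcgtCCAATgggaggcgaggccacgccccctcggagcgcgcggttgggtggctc
Tyms: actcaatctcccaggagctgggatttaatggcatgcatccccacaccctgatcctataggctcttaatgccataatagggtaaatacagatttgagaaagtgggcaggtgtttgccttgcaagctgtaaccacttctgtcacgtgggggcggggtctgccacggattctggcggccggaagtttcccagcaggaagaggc
Mcm3: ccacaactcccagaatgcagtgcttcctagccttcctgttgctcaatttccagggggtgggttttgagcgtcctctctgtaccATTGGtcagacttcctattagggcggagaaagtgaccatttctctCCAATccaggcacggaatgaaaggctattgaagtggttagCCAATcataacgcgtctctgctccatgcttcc
Mcm6: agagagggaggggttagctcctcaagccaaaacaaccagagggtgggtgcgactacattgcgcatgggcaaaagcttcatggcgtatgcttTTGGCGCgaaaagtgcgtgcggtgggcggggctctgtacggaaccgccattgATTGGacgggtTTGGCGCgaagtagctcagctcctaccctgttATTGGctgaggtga
Cdc20: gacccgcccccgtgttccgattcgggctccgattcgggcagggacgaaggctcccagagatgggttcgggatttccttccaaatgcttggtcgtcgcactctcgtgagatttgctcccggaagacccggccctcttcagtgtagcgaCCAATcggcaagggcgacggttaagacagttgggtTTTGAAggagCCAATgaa

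Prim1 has an E2F word that begins 15 bases before the start and overlaps a CCAAT box. Mcm6 has 2 E2F words and 2 CCAAT boxes in this stretch, the nearest E2F word 46 bases before the start. Ccne1 and Cdc20 carry a CHR word 15 and 18 bases before the start, and Cdc20 has 2 CCAAT boxes besides. These distances are to RefSeq starts. By the GENCODE positions, the E2F word of Prim1 and the CHR word of Ccne1 lie inside the gene. Mcm3 shows 3 CCAAT boxes here, while its 3 E2F words lie after the start, Rrm2 has 1, and Tyms holds none of the words here.

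The table of RefSeq promoters used here gave one for 28 of the 36 members, taken from 250 bases before to 50 bases after each start. An E2F word occurred in 11 of 17 replication genes (64.7%), in 3 of 11 mitosis genes (27.3%) and in 7.8% of all 27025 genes of the table. CHR words divided the classes the other way. They were found in 5 of 17 replication genes (29.4%), in 10 of 11 mitosis genes (90.9%) and in 30.6% of all genes. A CCAAT box was present in 58.8%, 90.9% and 41.1%. Among members called lower, 3 of 7 had an E2F word and 3 of 7 a CHR word. Among tested members without a call it was 9 of 16 for each. A match shows only that the letters are there, and an E2F word can overlap a CCAAT box, as in Prim1.

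**Figure D2:**
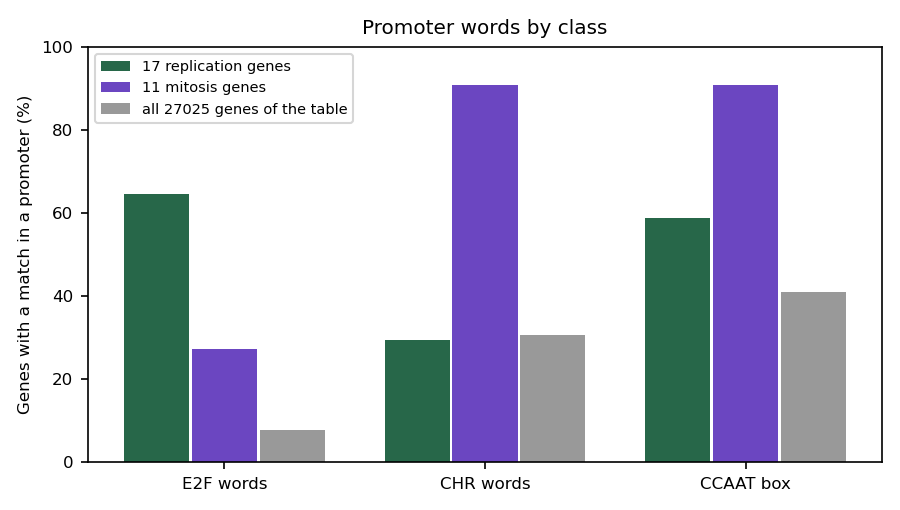
Share of genes with at least 1 match in a RefSeq promoter, in percent, for E2F words, CHR words and the CCAAT box. Green bars are the 17 replication genes with a promoter, violet bars the 11 mitosis genes and grey bars all 27025 genes. E2F words are most frequent in replication genes (64.7%) and CHR words in mitosis genes (90.9%).

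Among the 10 genes of helicase loading and activation, 2 fell, 6 did not pass and 2 had too few counts to test. Of all genes tested, 9.51% were called lower. Mcm2 to Mcm7 encode the subunits of the ring-shaped replicative helicase. Mcm3 (chromosome 1, 20802968 to 20820312, GRCm38) had 3.49, 3.74 and 3.45 CPM after 4 h and 1.91, 1.57 and 2.43 CPM after 16 h. The groups do not overlap, and the log2 fold change was -0.84 ± 0.23 (SE, edgeR adjusted p = 0.0258). Mcm6 (chromosome 1, 128331590 to 128359664) went from 3.53, 4.83 and 3.24 CPM to 2.18, 2.29 and 2.22 CPM (-0.78 ± 0.22, edgeR adjusted p = 0.0312). Its 16 h values are nearly alike, while replicate 2 is the highest of the 4 h libraries. Both calls were lost without single libraries, that of Mcm6 without any one library except replicate 3 of the 4 h fast (edgeR adjusted p = 0.0619 to 0.122). Mcm3 lost its call without replicate 1 or 2 of either group (edgeR adjusted p = 0.0638 to 0.0988).

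The other ring subunits differed in their values. Mcm5 had 0.92, 1.42 and 1.04 CPM after 4 h and 0.40, 0.603 and 0.906 CPM after 16 h without overlap, and did not pass (-0.78 ± 0.39). Mcm2 (-0.67 ± 0.29) and Mcm4 (-0.37 ± 0.28) did not pass either, although Mcm2 did without replicate 3 of the 4 h fast (-0.85, edgeR adjusted p = 0.0414). Mcm7 was the most abundant of the 6, with 14.7, 16.8 and 12.7 CPM after 4 h and 16.2, 14.8 and 13.9 CPM after 16 h (0.03 ± 0.14). Its 95% interval ran from -0.27 to 0.33, which leaves out a change of the size of that in Mcm3 or Mcm6. Per kilobase of exon and over all libraries, the level of Mcm7 was 3.35 CPM, that of Mcm3, Mcm4 and Mcm6 between 0.653 and 0.737 CPM in an order that differed between the groups, that of Mcm2 0.335 CPM and that of Mcm5 0.221 CPM. Of the exon bases of Mcm7, 12.6% overlap other genes, among them the microRNA genes Mir25 and Mir93.

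Cdt1, which loads the ring onto DNA, had 4.78, 3.09 and 4.49 CPM after 4 h and 2.98, 2.89 and 2.72 CPM after 16 h. These groups do not overlap, but the change did not pass (-0.54 ± 0.22, edgeR adjusted p = 0.105). Gins1, a subunit of the complex that activates the helicase, was at 3.33 ± 0.36 and 3.17 ± 0.29 CPM (SD, n = 3) and did not pass (-0.08 ± 0.20). Cdc6, the partner of Cdt1, had 5, 1 and 5 counts after 4 h and 3, 2 and 4 counts after 16 h. Gins2 had 8, 3 and 3 counts and then 3, 4 and 1, and 67.3% of its exon bases overlap Gse1 on the other strand. The ratio of pooled rates, 16 h over 4 h, was 0.799 for Cdc6 (95% exact interval 0.293 to 2.12) and 0.558 for Gins2 (0.203 to 1.42). No difference was detectable at this depth. These intervals cover counting error only, since reads are not independent molecules.

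At the replication fork, 1 of 7 genes fell, 5 did not pass and 1 could not be tested. The share called lower over all genes tested was 9.51%. Prim1 encodes the catalytic subunit of primase, which lays down the RNA primers of both strands. Prim1 (chromosome 10, 128015168 to 128030037) had 3.20, 4.00 and 2.72 CPM after 4 h and 1.51, 1.14 and 1.44 CPM after 16 h. Every 16 h value is below every 4 h value, and the fall was 2.42-fold (-1.25 ± 0.25, edgeR adjusted p = 0.00565). Pola1, the polymerase subunit that extends those primers, had 2.06, 3.16 and 2.77 CPM and then 1.69, 1.69 and 1.73 CPM, without overlap and without passing (-0.63 ± 0.25, edgeR adjusted p = 0.103).

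The most abundant members belong to the sliding clamp and its loader. Pcna, the clamp, had 29.3, 25.6 and 33.7 CPM after 4 h and 26.2, 26.2 and 26.3 CPM after 16 h (-0.17 ± 0.12). Its groups overlap, and its 95% interval of -0.44 to 0.09 leaves out a fall as large as that of Prim1. Rfc2, a clamp loader subunit, had 21.8, 18.9 and 22.8 CPM and then 17.1, 17.8 and 19.6 CPM (-0.22 ± 0.12), with 15.1% of its exon bases under Lat2 on the other strand. Rfc4, another loader subunit, was at 1.98 ± 0.18 and 1.57 ± 0.07 CPM without overlap, and did not pass (-0.33 ± 0.25). Lig1, which seals the nicks of the lagging strand, did not pass (-0.24 ± 0.21). Fen1, the flap nuclease, had 2, 4 and 1 counts after 4 h and 1, 1 and 2 after 16 h. Other genes overlap 84.2% of its exon bases, so reads may go unassigned, and the ratio of pooled rates was 0.558 (0.120 to 2.19).

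Of 3 genes that supply DNA building blocks, 2 fell and 1 did not pass, beside 9.51% lower over all genes tested. Rrm2 encodes the small subunit of ribonucleotide reductase, which makes deoxyribonucleotides and is known to be rare outside S phase. Rrm2 (chromosome 12, 24708241 to 24714146) had 9.67, 5.74 and 6.48 CPM after 4 h and 2.80, 4.46 and 3.95 CPM after 16 h (-0.99 ± 0.24, edgeR adjusted p = 0.0156). The groups do not overlap, and replicate 1 is the highest of its group after 4 h and the lowest after 16 h. Rrm1, the large subunit, had 7.80, 9.60 and 6.63 CPM and then 7.03, 5.30 and 6.96 CPM. Its groups overlap, and it did not pass (-0.30 ± 0.18). Whether the 2 subunits differ in their change was not tested.

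Tyms, the thymidylate synthase gene (chromosome 5, 30058202 to 30073617), had 5.15, 6.12 and 5.90 CPM after 4 h and 2.98, 3.92 and 3.66 CPM after 16 h. It fell 1.63-fold without overlap (-0.70 ± 0.19, edgeR adjusted p = 0.0234). The call of Rrm2 was lost without replicate 1 of the 4 h fast or replicate 1 or 3 of the 16 h fast (edgeR adjusted p = 0.0768, 0.0671 and 0.0521). That of Tyms was lost without replicate 2 of the 4 h fast or replicate 1 or 3 of the 16 h fast (0.0663, 0.0961 and 0.0719).

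Of the 3 genes of S phase cyclins, 1 fell and 2 did not pass, beside 9.51% lower over all genes tested. Ccne1 (chromosome 7, 38097984 to 38107534) had 45, 22 and 53 counts after 4 h and 12, 14 and 11 after 16 h, which is 1.66, 1.42 and 2.77 CPM and then 0.534, 0.844 and 0.453 CPM. It had the largest fitted fall of the members tested, 3.19-fold in mean CPM (-1.70 ± 0.38, edgeR adjusted p = 0.00954), and lost its call only without replicate 3 of the 16 h fast (edgeR adjusted p = 0.0561). Ccne2, which encodes the other cyclin E, had 1.51, 0.773 and 1.41 CPM and then 1.07, 1.63 and 1.73 CPM. Its groups overlap, it did not pass (0.23 ± 0.33), and 17.4% of its exon bases overlap Ints8. The 95% intervals of the log2 change were -2.53 to -0.88 for Ccne1 and -0.50 to 0.96 for Ccne2, and the difference between them was not tested. Ccna2, the cyclin of S phase and G2, had 1.07, 0.773 and 0.261 CPM and then 0.445, 0.542 and 0.865 CPM (-0.20 ± 0.50). It had under 10 counts in replicate 3 of the 4 h fast and replicate 2 of the 16 h fast, so its interval of -1.29 to 0.89 is wide.

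**Figure D3:**
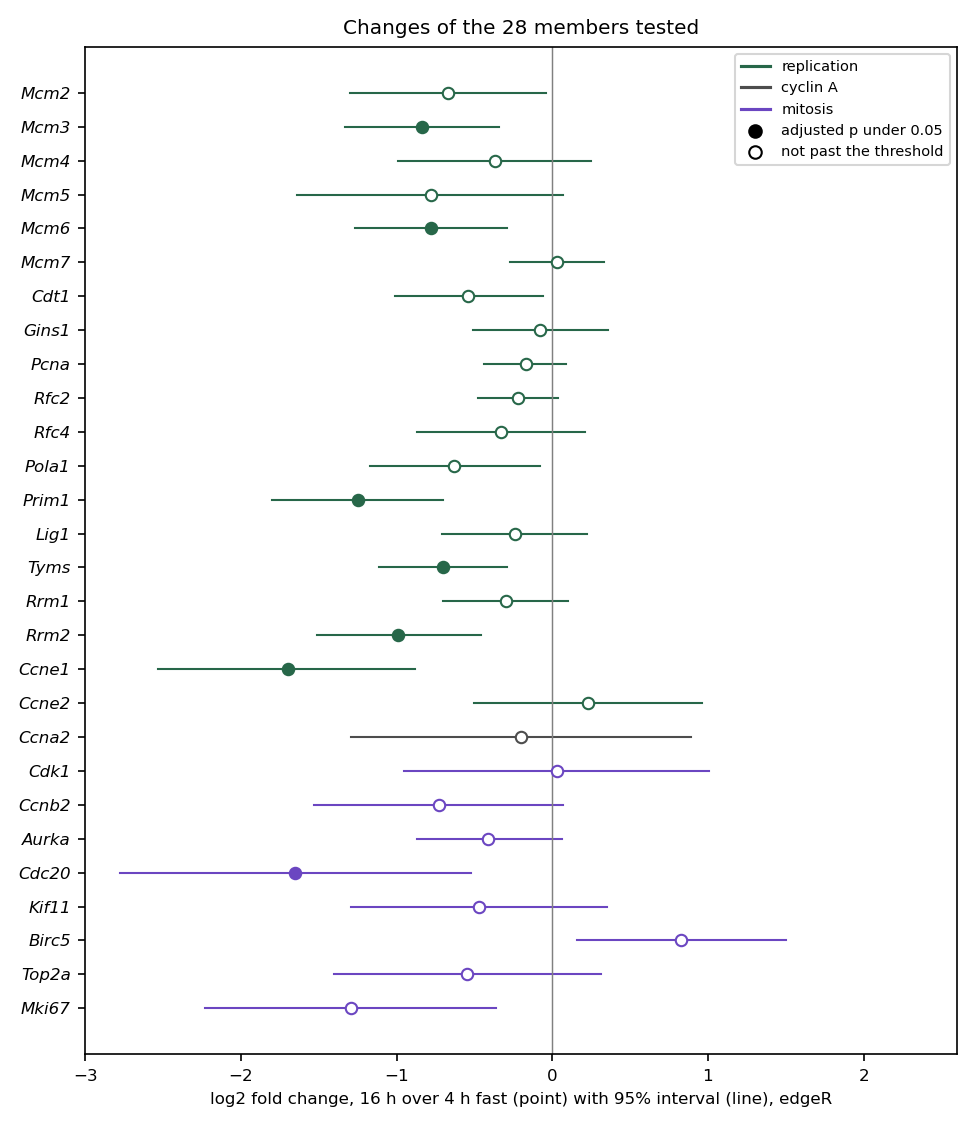
Log2 fold change of 16 h over 4 h for the 28 members tested, with 95% intervals from the edgeR fit. Green marks replication, grey cyclin A and violet mitosis, and filled points passed at an adjusted p under 0.05. The 7 filled points all lie below 0, and Birc5 at 0.83 is the highest point.

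Of the 13 mitosis genes, 1 fell, 7 did not pass and 5 had too few counts for a test. The fall is 1 of 8 tested, beside 9.51% of all genes tested. The median level of the 13 genes was 0.149 CPM per kilobase of exon, against 0.661 for the 22 replication genes. However, Cdc6, Fen1 and Gins2 were lower than all mitosis genes except Bub1. Cdc20 (chromosome 4, 118432901 to 118437352) had 32, 38 and 17 counts after 4 h and 4, 12 and 13 after 16 h. In CPM these are 1.18, 2.45 and 0.888 and then 0.178, 0.723 and 0.535, without overlap (-1.65 ± 0.52, edgeR adjusted p = 0.0457). The call held only without replicate 3 of the 4 h fast, and otherwise the adjusted p was 0.0636 to 0.149.

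Mki67, the gene of the proliferation marker Ki-67, had 51, 52 and 24 counts after 4 h and 15, 9 and 32 after 16 h. The corresponding levels are 1.88, 3.35 and 1.25 CPM and then 0.667, 0.542 and 1.32 CPM. Replicate 3 of the 16 h fast lies just above replicate 3 of the 4 h fast, and all other values are separate. Mki67 narrowly missed the threshold with edgeR (-1.29 ± 0.43, adjusted p = 0.0561) and passed with DESeq2 (adjusted p = 0.0417), with edgeR and no low-count filter (0.00446), and without either of those libraries (0.0184 and 0.0436). Those libraries hold the values that overlap, and without any other single library Mki67 did not pass. Top2a, the topoisomerase that untangles sister chromatids, had 0.993, 2.06 and 1.1 CPM and then 0.667, 0.783 and 1.28 CPM (-0.55 ± 0.39). Kif11, the motor that pushes spindle poles apart, was at 1.2 ± 0.311 and 0.836 ± 0.315 CPM (-0.47 ± 0.37). In both genes the groups overlap.

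Birc5 had the highest fitted log2 change of the members tested. It encodes survivin, a subunit of the chromosomal passenger complex and an inhibitor of apoptosis. Birc5 (chromosome 11, 117849251 to 117855743) had 30, 19 and 24 counts after 4 h and 31, 43 and 59 after 16 h, or 1.1, 1.22 and 1.25 CPM and then 1.38, 2.59 and 2.43 CPM. All 16 h values are above all 4 h values, yet the change did not pass (0.83 ± 0.31, edgeR adjusted p = 0.0805). Replicate 1 of the 16 h fast is close to the 4 h range, and without it Birc5 passed as higher (1.08, edgeR adjusted p = 0.0376). Aurkb, whose kinase works in the same complex, had 9, 6 and 3 counts and then 5, 0 and 2.

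Of the kinases and cyclins of mitosis, none of the 3 tested passed, and 0 of them had an unadjusted p under 0.05. With DESeq2 none passed either. Aurka, a spindle pole kinase, was the most abundant mitosis gene, with 4.05, 3.42 and 3.81 CPM after 4 h and 2.27, 3.07 and 3.21 CPM after 16 h. Its groups do not overlap (-0.41 ± 0.21, edgeR adjusted p = 0.206). Cdk1, the kinase that starts mitosis, had 1.21, 0.838 and 0.94 CPM and then 0.40, 1.63 and 1.15 CPM (0.03 ± 0.45). It held both the lowest and the highest of its values after 16 h. Ccnb2, a cyclin B gene, was at 1.16 ± 0.34 and 0.70 ± 0.21 CPM (-0.73 ± 0.37), and its transcribed pseudogene Ccnb2-ps drew 10 to 36 counts per library, so its level is uncertain.

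The remaining 4 kinase and cyclin genes and the motor gene Kif20a were below the count filter. Ccnb1, the other cyclin B gene, had 17, 22 and 5 counts after 4 h and 2, 5 and 5 after 16 h, a pooled rate ratio of 0.266 (0.128 to 0.513). Replicate 3 of the 4 h fast equals replicates 2 and 3 of the 16 h fast in counts. With no filter Ccnb1 passed with edgeR (adjusted p = 0.0175) but not with DESeq2 (0.0789). Plk1, a kinase of many mitotic steps, had 15, 6 and 10 counts and then 7, 1 and 8, a ratio of 0.504 (0.257 to 0.950). Aurkb had a ratio of 0.380 (0.134 to 0.953). These ratio intervals cover counting error only, not the spread between libraries. With no filter, neither Plk1 (-0.97 ± 0.62, edgeR adjusted p = 0.395) nor Aurkb (-1.36 ± 0.85, edgeR adjusted p = 0.389) passed.

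Bub1, a kinase of the spindle checkpoint, had 5, 1 and 2 counts after 4 h and 0, 0 and 7 after 16 h. A count of 0 allows up to 3 counts, or 0.133 and 0.181 CPM in replicates 1 and 2 of the 16 h fast. The pooled ratio of Bub1 was 0.854 (0.264 to 2.70), and its highest value is in a 16 h library. Kif20a, a motor of cytokinesis, had 20, 6 and 5 counts and then 17, 6 and 8, a ratio of 0.976 (0.574 to 1.66), with 29.3% of its exon bases under Cdc23.

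Set against each other, the classes had like medians and unlike precision. The median log2 fold change was -0.54 over 19 tested replication genes and -0.51 over 8 tested mitosis genes, with -0.03 over all genes tested. With no filter it was -0.56 over all 22 and -0.53 over all 13, against -0.04 over 26801 genes. Without replicate 3 of the 16 h fast the mitosis median became -0.87, over 10 tested genes, so not over the same set. Summed over the class, replication genes had 126, 120 and 123 CPM after 4 h and 96.9, 95.8 and 100 CPM after 16 h, that is 79.4% of the 4 h mean. Those groups are far apart compared with their spread. Mitosis genes summed to 15.2, 18.2 and 13 CPM and then to 8.36, 11.1 and 13.3 CPM, or 70.5%. Here the groups overlap through replicate 3 of each, and without that library of the 4 h fast they do not. For each 100 CPM of replication transcripts there were 12.1, 15.2 and 10.6 CPM of mitosis transcripts after 4 h and 8.63, 11.6 and 13.2 CPM after 16 h, with overlapping groups. A sum is weighted toward its abundant genes, and Pcna, Rfc2 and Mcm7 carry most of that of replication.

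**Figure D4:**
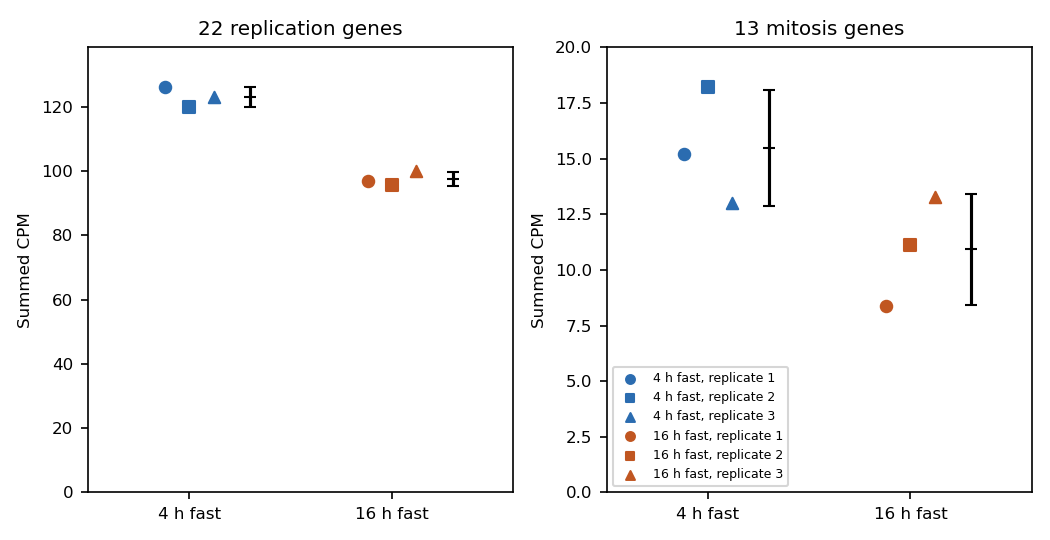
Summed CPM of the 22 replication genes and the 13 mitosis genes in each library, with the mean and SD of each group beside the points (n = 3) and axes from 0. The replication sums do not overlap, at 120 to 126 and 95.8 to 100 CPM, while the mitosis sums do, at 13 to 18.2 and 8.36 to 13.3 CPM.

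Other genes of the pathway were read from lists of names. Of 40 further replication genes, 6 fell, 1 rose, 28 did not pass and 5 were not tested (median -0.27). These calls are of 35 tested, beside 9.51% lower and 9.18% higher over all genes tested. Mcm10, which stabilises the helicase, was far more abundant than the ring subunits. It had 117, 138 and 140 CPM after 4 h and 73.0, 55.6 and 65.3 CPM after 16 h, and fell 2.04-fold (-1.03 ± 0.13, edgeR adjusted p = 0.000346). Per kilobase of exon the level of Mcm10 was 17.1 CPM after 4 h and 8.4 CPM after 16 h, beside 12.3 and 10.9 CPM for Pcna, the highest member. Pold2, a subunit of polymerase delta, fell from 13.8 ± 1.8 to 6.37 ± 0.88 CPM (-1.1 ± 0.16), Pold1, its catalytic subunit, by 0.71 and the clamp loader gene Rfc5 by 0.96 on the log2 scale. Rpa3, a subunit of the single-strand binding protein, fell by 0.79. Pole4, a small subunit of polymerase epsilon, rose from 24.1 ± 1.7 to 42.6 ± 8.2 CPM (0.82 ± 0.14, edgeR adjusted p = 0.00276). Without replicate 2 of the 16 h fast 3 of these genes fell, and without replicate 2 of the 4 h fast 2 rose. Calls of Rpa3 and Pold1 were among those lost without single libraries, and those of Mcm10, Pold2, Pole4 and Rfc5 were not.

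Of 40 further mitosis genes, 1 fell, 1 rose, 23 did not pass and 15 had too few counts (median -0.62). With 25 tested, both counts lie under the shares of all genes tested, 9.51% lower and 9.18% higher. Cenpa, the histone that marks centromeres, had 8.09, 7.54 and 8.09 CPM after 4 h and 3.51, 3.74 and 4.12 CPM after 16 h (-1.06 ± 0.16, edgeR adjusted p = 0.00114). Nek2, a centrosome kinase, rose from 3.79, 3.03 and 3.34 CPM to 6.01, 8.13 and 6.55 CPM (1.01 ± 0.19, edgeR adjusted p = 0.00384). Both changes are wide of the spread within groups. Without replicate 3 of the 4 h fast, 9 of these genes fell in place of 1, of 29 tested, against 9.73% of all genes. Nuf2 and Hmmr, among the 9, were below the count filter with all libraries. They entered only through their remaining 4 h counts, 13 and 18 for Nuf2 and 18 and 14 for Hmmr. The larger number therefore rests partly on the filter. Without replicate 2 of the 4 h fast, 2 rose. Mean CPM was lower at 16 h for 34 of the 40, against 54.4% of all genes with a count.

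Among 19 E2F, RB and DREAM regulators, 2 fell, none rose, 16 did not pass and 1 was not tested (median -0.14). That is 2 of 18 tested, a share near the 9.51% of all genes tested that were called lower. E2f1, an activator of replication genes, had 3.42, 4.06 and 4.44 CPM after 4 h and 2.05, 1.51 and 1.61 CPM after 16 h. It fell 2.31-fold without overlap (-1.19 ± 0.23, edgeR adjusted p = 0.00435). Lin9, a core subunit shared by DREAM and its activating form, fell from 4.30 ± 0.30 to 2.11 ± 0.40 CPM (-1.01 ± 0.21, edgeR adjusted p = 0.00769). Neither call was lost without any single library.

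Of 7 inhibitors of cyclin-dependent kinases, 1 rose, 4 did not pass and 2 were not tested. Over all genes tested, 9.18% were called higher. Cdkn1a, the p21 gene, had 8.06, 4.70 and 2.25 CPM after 4 h and 26, 38.9 and 64.1 CPM after 16 h. It rose in mean CPM 8.59-fold, far apart from its 4 h range, and both groups are widely spread. Its call depended on the fit: edgeR gave an adjusted p of 0.0206, against 0.105 and 0.0677 without replicate 2 or 3 of the 4 h fast and 0.0724 with no filter. DESeq2 gave 8.28e-06. Cdkn1b, the p27 gene, did not pass (-0.30 ± 0.12) except as lower without replicate 3 of the 4 h fast (edgeR adjusted p = 0.00987).

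**Figure D5:**
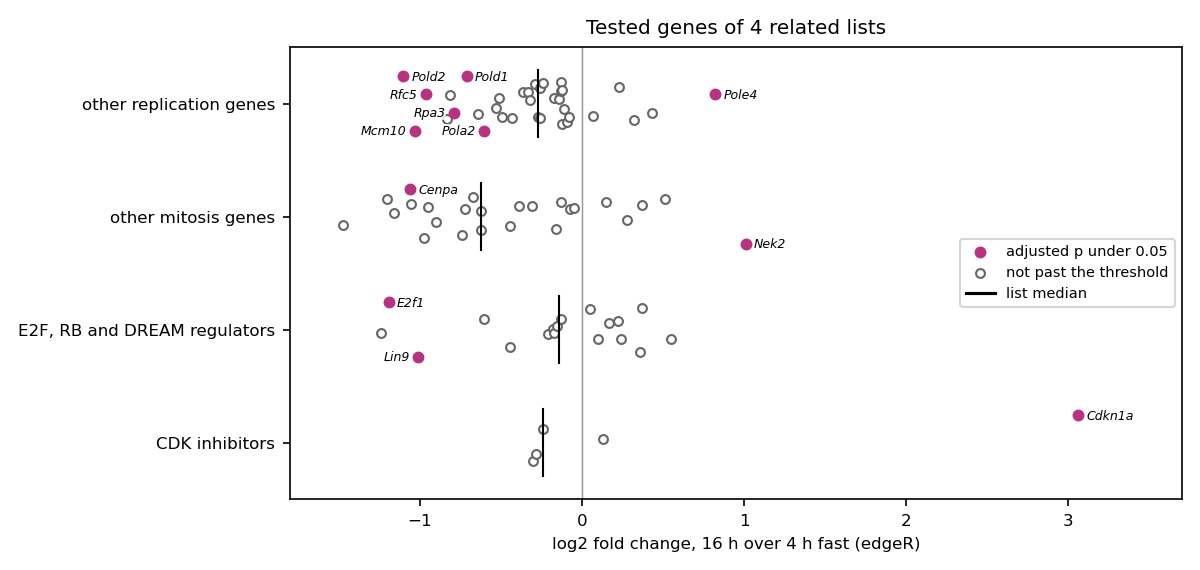
Log2 fold change of 16 h over 4 h for the tested genes of 4 related lists, 1 point per gene, spread vertically only for legibility. Filled points passed at an adjusted p under 0.05 and are named, and black bars are list medians. Medians lie at -0.27, -0.62, -0.14 and -0.24 from top to bottom, and Cdkn1a stands alone at 3.06.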

How the data were processed

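Per the design text and the submitters' processing notes, reads were trimmed (Trimmomatic), checked (FastQC) and aligned to GRCm38 with STAR, and HTSeq gave the counts. No version, annotation release or strand setting is stated there. Each deposited table holds the authors' unnormalised read counts by Ensembl identifier. Lines that name no gene were left out. They held 6.44% to 7.14% of reads outside genes and 5.78% to 6.60% of reads that hit more than 1 gene, so genes that overlap others can lose reads.

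Symbols, positions and exon lengths came from GENCODE M21 (99.57% of identifiers found). Genes were kept by filterByExpr (minimum count 10; 13812 genes), scaled by TMM and tested with edgeR 4.0.16 in R 4.3.3, with a robust quasi-likelihood fit, group as the only term, a 2-sided test and Benjamini-Hochberg adjustment (threshold 0.05). Errors of log2 fold changes are SE, those of CPM are SD over 3 libraries. DESeq2 1.42.0 was an alternative. The fit was tested on simulated data. No pair of libraries within a group was a duplicate (chi-square per degree of freedom 17.3 to 68.5). The members, lists, promoter words and naming rule were chosen with earlier results of these data known. The rule names all members and up to 6 called genes of each related list.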

Additional observations from a re-analysis of the deposited data

How the results depend on the processing

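Counts this low limit most results: the median SE was 0.25 for tested members and 0.16 for all genes tested. The members called lower numbered 7 with DESeq2 size factors, plain totals or the replicate block, 8 with DESeq2, 9 with no low-count filter and 6 with a minimum of 1 CPM in 3 libraries. Leaving out single libraries gave 2 to 10 lower and 0 to 1 higher. Without single libraries, class medians ran from -0.54 to -0.39 for replication and from -0.87 to -0.35 for mitosis. The mitosis medians were over 8 to 11 tested genes, so not always the same set, and the cause was not tested. Further replication genes called lower were 3 to 8 and higher 1 to 2 without single libraries, with 2 higher with no filter. Further mitosis genes were 1 to 9 lower and 1 to 2 higher, and 6 lower with no filter. E2F and DREAM regulators called lower were 2 to 3. Kinase inhibitors called higher were 0 with no filter, 0 with the replicate block and 0 to 1 without single libraries, and those lower 0 to 1. Same-numbered samples correlated at 0.0876, 0.0933 and 0.0455, and differently numbered ones at -0.138 to 0.0662. All these values are weak and the design text states no pairing, so the numbers were not taken to pair animals. The replicate block left the 7 calls among members and removed that of Cdkn1a (adjusted p = 0.108). Direction turned for 4 members without a call. Without single libraries Cdk1 ran from -0.37 to 0.45, Mcm7 from -0.05 to 0.15, Gins1 from -0.15 to 0.03 and Ccna2 from -0.57 to 0.33, and with the block Cdk1 was -0.07. The cause was not tested.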

Other observations

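Subunits of one enzyme did not all have the same value. These genes were picked after their values were seen, and differences between them were not tested. For polymerase delta, Pold3 was at 9.95 ± 1.55 and 9.44 ± 0.79 CPM (SD, n = 3; -0.08 ± 0.15), beside the falls of Pold1 and Pold2. Pole3, of polymerase epsilon, was at 21.6 ± 2.0 and 20.3 ± 2.5 CPM (-0.09 ± 0.13), beside the rise of Pole4. Pole, the catalytic subunit, had a far lower level per kilobase of exon, 0.099 CPM against 10.3 for Pole3 and 13.3 for Pole4. Of the origin recognition genes, Orc3 was at 18.7 ± 3.5 and 25.3 ± 3.4 CPM without overlap and did not pass (0.43 ± 0.15, edgeR adjusted p = 0.0754).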
